A study of Mus musculus with 15 samples.

Results

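The genes that encode integrin subunits and laminin chains were followed through the aorta-gonad-mesonephros (AGM) region of the mouse embryo, the tissue in which the first hematopoietic stem cells form. They were chosen by symbol alone: every gene of the table named as an integrin alpha or beta subunit or as a laminin alpha, beta or gamma chain followed by its number or letter, with no use of its level. The 34 genes described, of the 28876 listed, are 25 integrin and 9 laminin genes. Of these, 32 reached 0.5 RPM (reads-per-million, scaled to the reads falling on genes) in at least 1 library and were tested among 18553 genes. The remaining integrin genes, Itgad and Itgax, encode leukocyte alpha subunits and reached at most 0.0743 and 0.0806 RPM, within or near the 0.0617 to 0.0889 RPM that 3 reads are worth. Lamb1-1, which later annotation calls Lamb1, is outside this choice because of its older symbol, and its level is given beside the chains it assembles with.

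Wild-type C57BL/6 embryos were dissected at embryonic day E9.5 or E10.5. The dorsal aorta with its surrounding tissue was divided into a dorsal domain (AoD) and a ventral domain (AoV), which were taken at both stages, and the urogenital ridges (UGR) at E10.5, which gives 5 groups, written E9 AoD and E9 AoV for the younger stage and E10 AoD, E10 AoV and E10 UGR for the older. Each group has 3 libraries, and each library holds tissue pooled from between 15 and 34 embryos. Between 33.7 and 48.6 M reads (megareads) per library fell on genes. The dissected parts are mixtures of cells, so a lower value from fewer cells of a type and one from less RNA per cell cannot be told apart.

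Laminins are cross-shaped trimers of 1 alpha, 1 beta and 1 gamma chain, and they form the sheet on which basement membranes are built. Integrins are paired alpha and beta subunits that span the cell membrane and tie laminins, collagens, fibronectin or cell-surface ligands outside the cell to the actin cytoskeleton inside it. In the AGM region, basement membranes surround the endothelium, the gut tube, the nephric duct, the coelomic lining and the somites, and integrins of blood cells and endothelium take part in the adhesion of newly formed hematopoietic cells.

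Marker lists matched the labelled parts and showed what else each part held. The 8 endothelial markers were detected in every group, summing to between 326 and 439 RPM in E9 AoD and between 524 and 753 RPM elsewhere. Somite markers summed to between 454 and 782 RPM in AoD of either stage and to at most 199 RPM in the other groups. Gut endoderm and liver markers reached 524 to 746 RPM in E9 AoV and at most 56.5 RPM elsewhere, nephric duct markers 285 to 305 RPM in E10 UGR and at most 102 RPM elsewhere, and coelomic and adrenogonadal markers 578 to 742 RPM in E10 AoV and E10 UGR against at most 189 RPM in the rest. The 5 notochord markers summed to 148 to 171 RPM in E10 AoD, 65.3 to 73.8 RPM in E9 AoD and 57.1 to 71.4 RPM in E9 AoV. In E10 AoV and E10 UGR their sum was at most 8.55 RPM. From E9 AoD to E10 AoD, 2 of them were called higher and 2 lower. Noto, 1 of the 5, was listed at 0 in the 3 libraries of E10 AoV. It was at most 0.0822 RPM in the other E10 libraries, against 0.58 to 1.02 RPM in the E9 libraries.

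The members shared no single pattern. By group mean, 10 of the 32 were highest in E10 AoV, 7 in E10 AoD, 7 in E9 AoV, 5 in E10 UGR and 3 in E9 AoD, whereas 14 were lowest in E9 AoD. In 17 members the 3 libraries of the highest group lay above the other 12 libraries, which is 53.1% of the members against 38.4% of all tested genes. These were Itgb8 in E9 AoD, Itga3, Lama5, Lamb2 and Lamb3 in E9 AoV, Itga4, Itga7, Itga9, Itga11 and Itgam in E10 AoD, Itga1, Itgb1, Itgb3, Lama3 and Lamc3 in E10 AoV, and Itgb6 and Lama4 in E10 UGR. A gene was called when its adjusted p, from limma over the 18553 tested genes, fell under 0.05 and its level differed by a factor of 2 or more, that is by a log2 fold change of 1 in either direction. Over 7 comparisons, 18 of the 32 members were called at least once, against 25.6% of all tested genes. The heat map of the 32 genes shows these patterns by role.

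**Figure D1:**
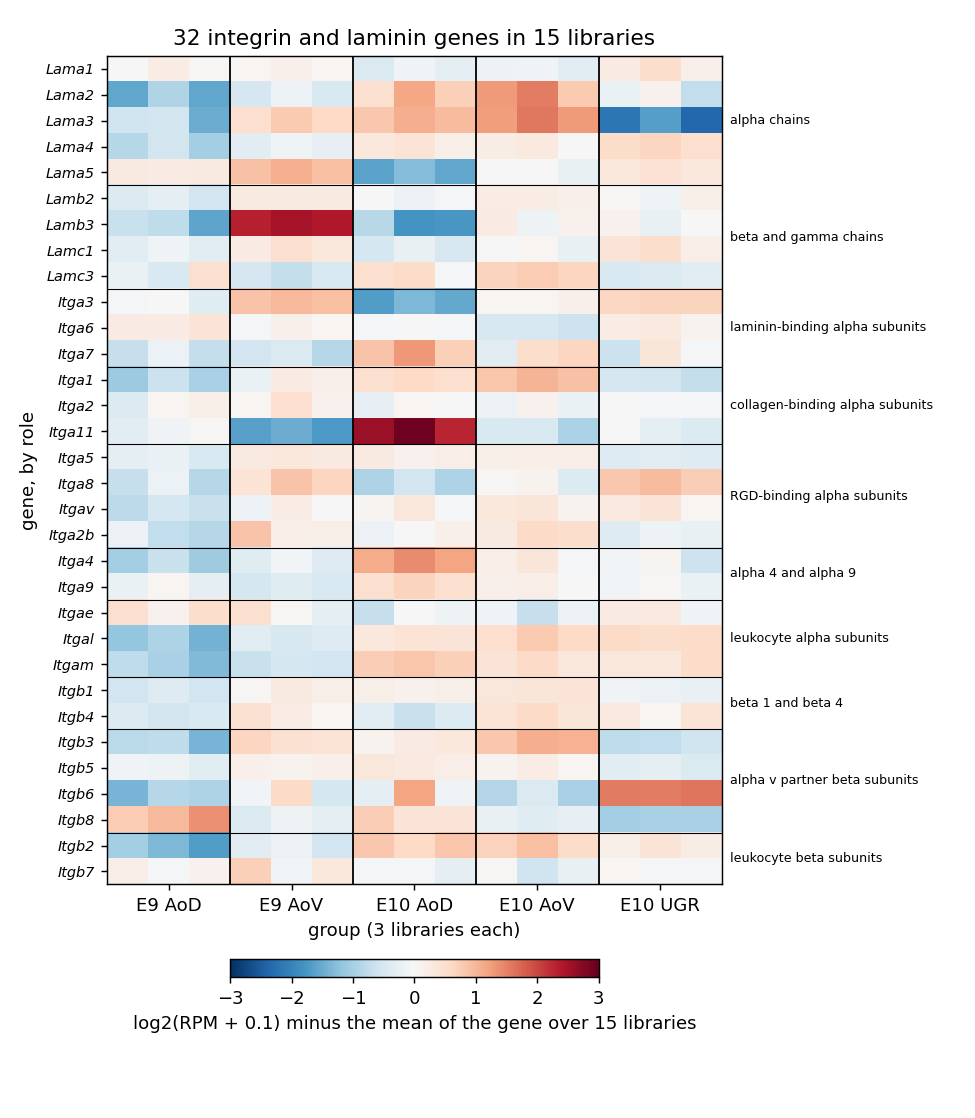
Heat map of 32 integrin and laminin genes (rows, by role) in 15 libraries (columns, 3 per group). Colour gives log2(RPM + 0.1) minus the mean of the gene over the 15 libraries, and it saturates at 3 in either direction. Lamb3 stands out in E9 AoV and Itga11 in E10 AoD, and Lama5 and Itga3 are low in E10 AoD.

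Levels of different genes were compared only per kilobase of exon. Itgb1, the beta subunit shared by most integrins that bind matrix, was the most abundant member in every group, with a mean between 85.3 and 156 RPM per kb. Among laminins, Lamc1, the gamma chain of most laminin trimers, followed with 23.5 to 40.4 RPM per kb, and Lamb1-1 with 17.4 to 31.5 RPM per kb. Lama1, an alpha chain of early embryonic basement membranes, lay between 8.27 and 12.4 RPM per kb, close to Lama5 in E9 AoD (8.5), E10 AoV (6.75) and E10 UGR (9.09 RPM per kb), whereas in E10 AoD Lama5 was at 2.54 RPM per kb. Lama3 and Lamb3, which join in a laminin of epithelial anchoring sites, were low and did not share a pattern: the group mean of Lama3 stayed at or below 0.792 and that of Lamb3 at or below 1.35 RPM per kb.

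Lama5 and the laminin receptor subunit Itga3 fell with stage in the dorsal part of the aorta and were lowest in E10 AoD. Lama5 (chromosome 2, 179911078 to 179960564 on the minus strand, NCBI37/mm9) encodes the alpha chain of most mature epithelial and vascular basement membranes. It was at 97.2, 95.8 and 97.8 RPM in E9 AoD, 148, 168 and 150 in E9 AoV, 26.7, 32.9 and 27.3 in E10 AoD, 80.5, 81.1 and 69.2 in E10 AoV, and 102, 109 and 99.9 RPM in E10 UGR. No 2 groups overlapped, and the 3 E10 AoD libraries were the lowest of the 15. The log2 fold change from E9.5 to E10.5 was -1.75 in AoD (SE 0.0795, adjusted p = 6.08e-10) and -1.01 in AoV (adjusted p = 1.15e-07). E10 AoV was above E10 AoD by 1.41 on the log2 scale (adjusted p = 4.39e-09), and E10 AoD was below E10 UGR (-1.84, adjusted p = 2.44e-10). The AoV change lies at the threshold, and without E9 AoV replicate 2 or E10 AoV replicate 3 it was -0.96 and -0.94, which ends the call.

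Itga3 (chromosome 11, 94905788 to 94938115 on the minus strand) encodes an alpha subunit that, with Itgb1, binds laminins holding the Lama5 chain. Its values were 51, 53.8 and 41.5 RPM in E9 AoD, 96.3, 104 and 99.9 in E9 AoV, 16.7, 21 and 18.2 in E10 AoD, 55.5, 55.9 and 59.4 in E10 AoV, and 82, 85.4 and 85.4 RPM in E10 UGR. Again no groups overlapped, E9 AoV was highest and E10 AoD lowest. Itga3 fell by 1.38 on the log2 scale from E9 AoD to E10 AoD (SE 0.0886, adjusted p = 1.1e-08), was higher in AoV than in AoD at E9.5 (1.04, adjusted p = 2.35e-07) and at E10.5 (1.61, adjusted p = 3.34e-09), and was lower in E10 AoD than in E10 UGR (-2.18, adjusted p = 1.57e-10). The E9.5 difference was 0.93 without E9 AoD replicate 3 and was then not called. From E9 AoV to E10 AoV the log2 change of -0.81 passed the adjusted p and not the fold threshold.

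Most, though not all, markers of several epithelia fell with Lama5 and Itga3 in AoD. From E9 AoD to E10 AoD, all 5 surface ectoderm markers, 5 of the 6 neural tube markers, 4 of the 7 gut endoderm and liver markers and 4 of the 7 nephric duct markers were called lower. In the same comparison 1 neural tube, 1 gut endoderm and liver and 1 nephric duct marker were called higher. Of the 5 tested coelomic and adrenogonadal markers, 1 was called higher and 1 lower. The sums of that list overlapped, 36 to 90.4 RPM in E9 AoD and 51.1 to 72.7 RPM in E10 AoD. From E9 AoV to E10 AoV, all 7 gut endoderm and liver, 4 neural tube and 3 surface ectoderm markers were called lower. There 4 coelomic and adrenogonadal, 2 nephric duct and 1 neural tube marker were called higher, with no coelomic or nephric duct marker lower. The surface ectoderm markers summed to 17.4 to 26.5 RPM in E9 AoD, 22 to 27.4 in E9 AoV, 0.814 to 2.23 in E10 AoD, 5.83 to 6.37 in E10 AoV and 3.52 to 4.13 RPM in E10 UGR. The nephric duct sum overlapped between E9 AoD (58.5 to 102 RPM) and E10 AoD (65.8 to 75.6 RPM). The part of these tissues in Lama5 and Itga3 was not tested.

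The starts of Lama5 and Itga3 are shown because both genes had the same order of lowest and highest group, with the start of Itga11, a gene highest where they were lowest, for contrast. Each sequence is the 250 bases before the start of the gene, from the promoter windows of RefSeq on GRCm38.p6, read on the strand of the gene, with the GC box GGGCGG or its reverse complement CCGCCC in capitals.
Lama5: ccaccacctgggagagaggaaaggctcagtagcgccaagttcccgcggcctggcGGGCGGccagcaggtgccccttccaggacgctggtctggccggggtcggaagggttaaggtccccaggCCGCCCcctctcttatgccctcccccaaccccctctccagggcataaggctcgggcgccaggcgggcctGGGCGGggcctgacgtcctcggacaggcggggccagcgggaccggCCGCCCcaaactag
Itga3: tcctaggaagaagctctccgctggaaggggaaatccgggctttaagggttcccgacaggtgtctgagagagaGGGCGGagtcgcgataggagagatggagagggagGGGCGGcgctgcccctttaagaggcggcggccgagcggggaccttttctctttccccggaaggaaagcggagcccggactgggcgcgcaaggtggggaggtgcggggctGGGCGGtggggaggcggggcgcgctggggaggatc
Itga11: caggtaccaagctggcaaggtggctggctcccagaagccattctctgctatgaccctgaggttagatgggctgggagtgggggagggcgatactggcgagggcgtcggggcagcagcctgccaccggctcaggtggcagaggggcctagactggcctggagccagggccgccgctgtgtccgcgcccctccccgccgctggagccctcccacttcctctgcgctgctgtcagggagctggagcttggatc
They lie at chr2:180225860-180226109 on the minus strand, chr11:95076715-95076964 on the minus strand and chr9:62677605-62677854 on the plus strand. The Lama5 window holds 4 GC boxes, the Itga3 window 3 and the Itga11 window none, and a further Itga3 start listed at chr11:95069199-95069448 holds 1. Lamb3 was also highest in E9 AoV and lowest in E10 AoD by group mean, and its listed windows hold none. Of other members highest by mean in E10 AoD and with a window, Itga4 and Itgam hold 1, Itgb5 holds 3 and Itga9 none. Of 32851 windows of this length, 32.7% hold at least 1 GC box and 16.7% at least 2. The windows shown for Lama5, Itga3 and Itga11 have 19, 22 and 12 CpG dinucleotides, against a median of 6 over all windows. A promoter entry was found for 21 of the 34 members, and the letters are a description of these windows only.

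Lamb3 (chromosome 1, 195128151 to 195170072 on the plus strand) encodes the beta chain that assembles with Lama3, and it was highest in E9 AoV. Its values there were 5.56, 6.24 and 5.89 RPM, against 0.615, 0.564 and 0.278 RPM in E9 AoD, 0.538, 0.226 and 0.237 RPM in E10 AoD, 1.25, 0.921 and 1.14 RPM in E10 AoV and 1.13, 0.864 and 1.04 RPM in E10 UGR. The E9 AoV libraries lay far above the rest, and those of AoD at either stage were the lowest and overlapped each other. Lamb3 was up-regulated in E9 AoV over E9 AoD by 3.41 on the log2 scale (SE 0.263, adjusted p = 8.64e-08) and fell by 2.32 from E9 AoV to E10 AoV (adjusted p = 4.61e-06). It was also called up in E10 AoV over E10 AoD (1.54, adjusted p = 0.000289) and lower in E10 AoD than in E10 UGR (-1.42, adjusted p = 0.000504), both from values near 1 RPM or below. All 7 gut endoderm and liver markers were called higher in E9 AoV than in E9 AoD. All 7 were called lower in E10 AoV than in E9 AoV, so both changes matched those of Lamb3. In E10 AoV over E10 AoD, 2 were called higher and 1 lower, and in E10 AoD against E10 UGR 1 and 1. From E9 AoD to E10 AoD, where Lamb3 was not called, 4 of these markers were lower and 1 higher. Their part in the Lamb3 values was not tested.

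Lama3, the alpha chain of the same trimer, had a different order, with E10 AoV highest and E10 UGR lowest. It was at 2.04, 2.1 and 1.05 RPM in E9 AoD, 4.51, 5.45 and 4.78 in E9 AoV, 5.61, 6.85 and 6.16 in E10 AoD, 7.6, 9.67 and 7.78 in E10 AoV, and 0.622, 0.925 and 0.535 RPM in E10 UGR. No groups overlapped. It was called higher than in E10 UGR in both E10 AoV (3.43, SE 0.225, adjusted p = 3.96e-08) and E10 AoD (3.02, adjusted p = 5.7e-08), and it was up-regulated with stage in AoD (1.84, adjusted p = 6.48e-06) and in E9 AoV over E9 AoD (1.51, adjusted p = 6.1e-05).

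Lama2, the alpha chain of muscle and mesenchymal basement membranes, rose with stage on both sides of the aorta. Its values were 3.37, 5.32 and 3.38 RPM in E9 AoD, 7.04, 8.88 and 7.37 in E9 AoV, 14, 22.7 and 16.5 in E10 AoD, 24.4, 29.4 and 17.5 in E10 AoV, and 8.8, 11.1 and 6 RPM in E10 UGR. Both E10 aortic groups were above the other groups and overlapped each other. The rise was 2.12 on the log2 scale in AoD (SE 0.247, adjusted p = 4.14e-06) and 1.58 in AoV (adjusted p = 0.000107). E10 AoV and E10 AoD were higher than E10 UGR by 1.46 (adjusted p = 0.000357) and 1.04 (adjusted p = 0.00339). The difference between E10 AoD and E10 UGR was 0.85 without E10 AoD replicate 2 and 0.81 without E10 UGR replicate 3, which ends the call.

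Lama4, the alpha chain typical of endothelial basement membranes, was at 24.5, 30.7 and 22.1 RPM in E9 AoD, 35.2, 40.9 and 38 in E9 AoV, 55.6, 59.6 and 50.9 in E10 AoD, 52.6, 54.9 and 45.3 in E10 AoV, and 65.4, 69.6 and 63.5 RPM in E10 UGR. E9 AoD was lowest and E10 UGR highest without overlap, and both E10 aortic groups overlapped. The only call was the rise from E9 AoD to E10 AoD, 1.11 on the log2 scale (SE 0.106, adjusted p = 5.32e-07). In the same comparison 4 of the 8 endothelial markers were called higher. Their sum was lower in E10 UGR (524 to 566 RPM), where Lama4 was highest, than in E10 AoD (675 to 736 RPM) or E10 AoV (701 to 753 RPM). Whether these markers account for Lama4 was not tested.

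Lamc3, a gamma chain outside the common trimers, was at 2.64, 2.2 and 4.31 RPM in E9 AoD, 2.14, 1.83 and 2.22 in E9 AoV, 4.32, 4.56 and 3 in E10 AoD, 4.91, 5.3 and 4.81 in E10 AoV, and 2.21, 2.25 and 2.4 RPM in E10 UGR. E10 AoV was above all other groups, which otherwise overlapped in part. It rose by 1.24 on the log2 scale with stage in AoV (SE 0.2, adjusted p = 0.000134) and was higher there than in E10 UGR (1.1, adjusted p = 0.00066). Exons of an opposite-strand gene model, Gm13441, cover 6.27% of the Lamc3 exon bases, and reads of the overlap cannot be assigned to either without strand. The laminin panels show these chains by library.

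**Figure D2:**
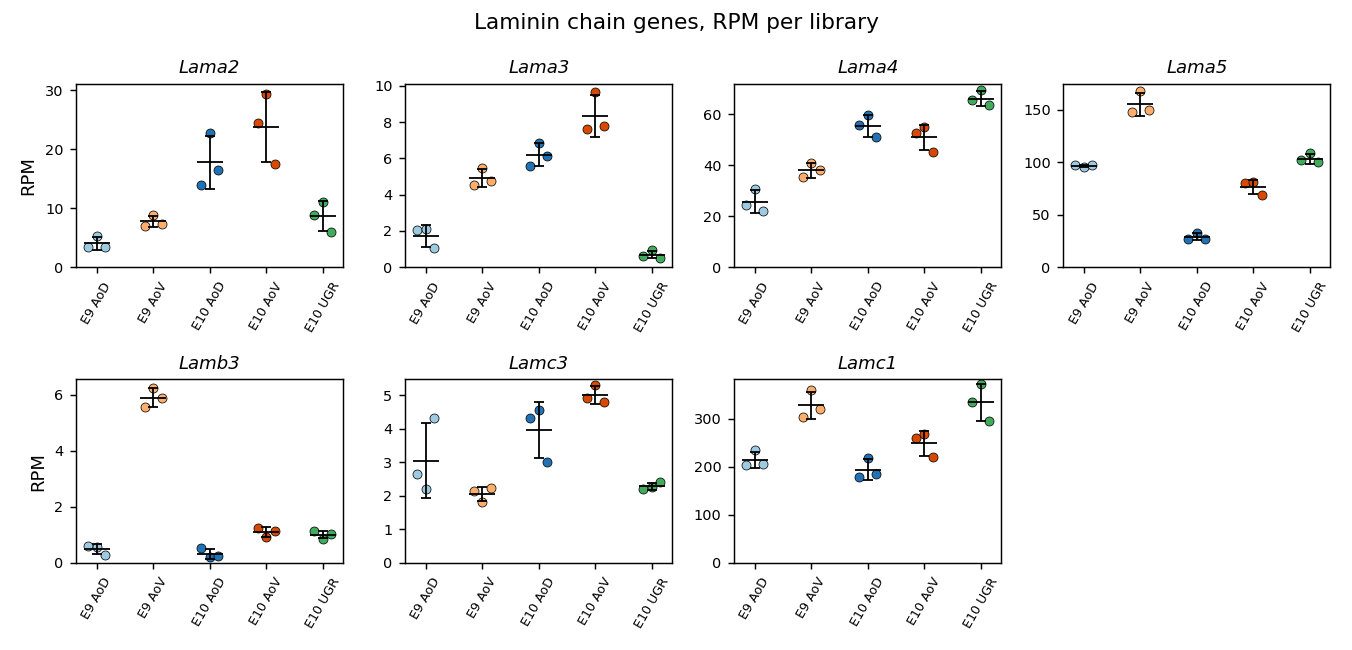
RPM (vertical axes, each from 0) of 7 laminin chain genes in the 5 groups. Points are libraries, the wide bars are group means and the error bars are SD (n = 3). Lamb3 is between 5.56 and 6.24 RPM in E9 AoV and at most 1.25 RPM elsewhere, and Lama3 is between 0.535 and 0.925 RPM in E10 UGR and at least 1.05 RPM elsewhere.

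The other laminin chains were called in no comparison. Lama1 ranged from a mean of 78.7 ± 8.82 RPM in E10 AoD to 118 ± 17.4 RPM in E10 UGR (SD, n = 3), Lamb2 from 41.4 ± 4.4 RPM in E9 AoD to 66.6 ± 0.153 RPM in E9 AoV, and Lamc1 from 194 ± 21.6 RPM in E10 AoD to 334 ± 38 RPM in E10 UGR. Lamb1-1, which is no member, had the same lowest and highest group as Lamc1, with 173 ± 7.02 RPM in E10 AoD and 313 ± 13.3 RPM in E10 UGR. For Lamc1 this was a log2 fold change of -0.78 and for Lamb1-1 of -0.86 (adjusted p = 2.36e-06), both short of the fold threshold.

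Among the integrins, Itga11 gave the largest difference between the dorsal and ventral aorta, and Itga11 and Itga4 were both highest in E10 AoD. Itga11 (chromosome 9, 62525633 to 62631789 on the plus strand) encodes a collagen receptor subunit of mesenchymal cells. It was at 1.75, 2.04 and 2.24 RPM in E9 AoD, 0.638, 0.719 and 0.594 in E9 AoV, 13.6, 17.2 and 11 in E10 AoD, 1.58, 1.56 and 1.09 in E10 AoV, and 2.19, 1.77 and 1.61 RPM in E10 UGR. The 3 E10 AoD libraries stood apart from all others, and E9 AoV lay below all others. The log2 fold change was 2.72 from E9 AoD to E10 AoD (SE 0.18, adjusted p = 1.53e-08), -3.21 in E10 AoV over E10 AoD (adjusted p = 4.04e-09), -1.49 between E9 AoV and E9 AoD (adjusted p = 8.3e-06), and 2.83 between E10 AoD and E10 UGR (adjusted p = 1.15e-08).

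Itga4 (chromosome 2, 79095583 to 79173280 on the plus strand) encodes the alpha subunit that binds Vcam1 and fibronectin, found on blood cells, neural crest and muscle precursors. Its values were 17.4, 22.2 and 17 RPM in E9 AoD, 27.6, 33.4 and 27.1 in E9 AoV, 76.9, 95.3 and 81.5 in E10 AoD, 41, 45.5 and 34.4 in E10 AoV, and 33.5, 37.4 and 23.1 RPM in E10 UGR. E10 AoD was above all other groups and E9 AoD below them. It rose by 2.16 on the log2 scale in AoD (SE 0.162, adjusted p = 4.92e-08), was lower in E10 AoV than in E10 AoD (-1.07, adjusted p = 9.68e-05) and was higher in E10 AoD than in E10 UGR (1.45, adjusted p = 4.04e-06). The difference between E10 AoV and E10 AoD was -0.98 without E10 AoD replicate 2 and -0.96 without E10 AoV replicate 3, and then not called. Its ligand gene Vcam1 was also higher in E10 AoD, with 19.1 RPM against 6.98 RPM in E10 AoV (-1.44, adjusted p = 3.46e-05). Fn1, the gene of its ligand fibronectin, went the other way, with 1070 RPM in E10 AoD against 1620 RPM in E10 AoV, without overlap. Cerkl on the opposite strand covers 8.04% of the Itga4 exon bases.

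At E10.5, markers of tissues dorsal to the aorta moved with Itga4 and Itga11. Between E10 AoV and E10 AoD, 8 of the 9 somite markers, all 6 neural tube markers and all 6 neural crest and sympathoadrenal markers were called lower. Neural crest and sympathoadrenal markers summed to between 279 and 328 RPM in E10 AoD and to at most 66.2 RPM in the other groups. The neural tube sum fell with stage in AoD, from 218 to 370 RPM at E9.5 to 138 to 175 RPM at E10.5. Most of this E10 AoD sum was Tubb3, whose mean rose from 60.4 to 124 RPM. The other 5 neural tube markers were called lower with stage, and the median log2 change of the list was -4.11. At E9.5, 8 of the 9 somite, all 6 neural tube and 4 of the 6 neural crest and sympathoadrenal markers were also called lower in AoV, as was Itga11, whereas Itga4 was above its E9 AoD level there by 0.64 on the log2 scale (adjusted p = 0.00456), without overlap and short of the fold threshold. The part of these tissues in either integrin was not tested.

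The other alpha subunits with calls covered collagen, laminin and RGD ligands. Itga1, a collagen and laminin receptor subunit of smooth muscle and endothelium, was at 3.91, 5.37 and 4.3 RPM in E9 AoD, 7.34, 9.99 and 9.48 in E9 AoV, 11.9, 12.8 and 12.1 in E10 AoD, 15.1, 17.2 and 15.6 in E10 AoV, and 5.9, 5.74 and 5.13 RPM in E10 UGR. Both E10 aortic groups were above the rest, and E9 AoD and E10 UGR overlapped at the low end. It rose by 1.43 on the log2 scale in AoD (SE 0.123, adjusted p = 1.87e-07) and was higher than in E10 UGR in E10 AoV (1.5, adjusted p = 3.4e-07) and in E10 AoD (1.12, adjusted p = 3.29e-06). Smooth muscle markers, summed, followed the same groups, between 765 and 994 RPM in both E10 aortic groups, 578 to 584 RPM in E9 AoV, 179 to 291 RPM in E9 AoD and 223 to 269 RPM in E10 UGR. In each comparison where Itga1 was called, 5 of these 7 markers were called higher and none lower. Des did not follow the sum, with 40.2 RPM in E10 AoD, 39.2 in E9 AoD and 73.2 RPM in E10 UGR. Nor did Pdgfrb, with 87.1 RPM in E9 AoV against 99.4 RPM in E9 AoD. The part of these markers in Itga1 was not tested.

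Itga8, which pairs with Itgb1 as the receptor of nephronectin in kidney development, was at 16.6, 23.6 and 14.7 RPM in E9 AoD, 35.4, 48.1 and 42.1 in E9 AoV, 14.1, 17.9 and 14.1 in E10 AoD, 27.6, 28.9 and 20.2 in E10 AoV, and 46.6, 51.4 and 44.5 RPM in E10 UGR. E10 UGR and E9 AoV were high and overlapped, and both AoD groups were low and overlapped. It was higher in E9 AoV than in E9 AoD (1.21, SE 0.172, adjusted p = 3.91e-05) and lower in E10 AoD than in E10 UGR (-1.63, adjusted p = 2.18e-06). The nephronectin gene Npnt differed in the same direction in these comparisons, 86.5 against 32.4 RPM between E9 AoV and E9 AoD (1.41, adjusted p = 3.89e-07) and 24 against 72.6 RPM between E10 AoD and E10 UGR (-1.6, adjusted p = 1.02e-07). E030013I19Rik on the opposite strand covers 5.07% of the Itga8 exon bases.

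Itga7, a laminin receptor subunit of muscle, was near 1 RPM or below throughout, at 0.197, 0.322 and 0.192 RPM in E9 AoD, 0.22, 0.255 and 0.166 in E9 AoV, 0.769, 1.08 and 0.687 in E10 AoD, 0.285, 0.588 and 0.652 in E10 AoV, and 0.207, 0.514 and 0.366 RPM in E10 UGR. E10 AoD was above the rest, which overlapped. It was called higher in E10 AoD than in E9 AoD (1.49, SE 0.295, adjusted p = 0.000548) and than in E10 UGR (1.07, adjusted p = 0.00942), the latter call lost without E10 AoD replicate 2 (0.9) or E10 UGR replicate 1 (0.8).

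Of the beta subunits that pair with Itgav, Itgb3, the receptor subunit of vitronectin and fibrinogen, was highest in E10 AoV. It was at 10.3, 10.7 and 6.88 RPM in E9 AoD, 28.3, 24.8 and 24 in E9 AoV, 19.5, 21.5 and 22.6 in E10 AoD, 31.9, 38.6 and 37.3 in E10 AoV, and 10.6, 10.8 and 12 RPM in E10 UGR. E10 AoV was above all groups, and E9 AoD and E10 UGR were lowest and overlapped. It was up-regulated in E9 AoV over E9 AoD (1.48, SE 0.136, adjusted p = 5.08e-07), in E10 AoD over E9 AoD (1.21, adjusted p = 2.86e-06) and in E10 AoV over E10 UGR (1.68, adjusted p = 2.88e-07). The change with stage in AoV (0.48, adjusted p = 0.0095) and the excess of E10 AoV over E10 AoD (0.76, adjusted p = 0.000435) passed the adjusted p and not the fold threshold. Its pairing partner in platelets and early blood progenitors, Itga2b, was called in no comparison, with means from 4.73 ± 1.28 RPM in E9 AoD to 9.68 ± 1.1 RPM in E10 AoV. Its log2 difference between E9 AoV and E9 AoD, 1 after rounding (adjusted p = 0.000506), fell just short of the fold threshold.

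Itgb8, the subunit that with Itgav releases active TGF-beta from its latent form, ran the other way. It was at 20.7, 23.9 and 31.9 RPM in E9 AoD, 9.09, 11 and 10.1 in E9 AoV, 20.6, 16.1 and 16.1 in E10 AoD, 10.1 ± 0.518 (mean ± SD, n = 3) in E10 AoV, and 5.93, 6.17 and 6.17 RPM in E10 UGR. AoD was higher than AoV at both stages without overlap, and E10 UGR was lowest. The differences called were -1.31 between E9 AoV and E9 AoD (SE 0.133, adjusted p = 1.41e-06) and 1.51 between E10 AoD and E10 UGR (adjusted p = 3.64e-07). At E10.5, the log2 difference of -0.79 between AoV and AoD passed the adjusted p and not the fold threshold.

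Itgb6, an epithelial partner of Itgav, was at 0.0983, 0.188 and 0.171 RPM in E9 AoD, 0.387, 0.672 and 0.261 in E9 AoV, 0.333, 1.08 and 0.379 in E10 AoD, 0.182, 0.281 and 0.163 in E10 AoV, and 1.42, 1.4 and 1.49 RPM in E10 UGR. The UGR libraries were highest, and the E10 AoD group held 1 library, replicate 2, well above the other two. It was lower than in E10 UGR in E10 AoV (-2.33, SE 0.344, adjusted p = 0.000106) and in E10 AoD (-1.3, adjusted p = 0.00736), and higher in E9 AoV than in E9 AoD (1.04, adjusted p = 0.0215). It was called higher in E10 AoD than in E9 AoD (1.33, adjusted p = 0.00414) and lower in E10 AoV than in E10 AoD (-1.04, adjusted p = 0.0288). Without E10 AoD replicate 2 these last values were 0.87 (adjusted p = 0.0197) and -0.58 (adjusted p = 0.138), and neither was called. The difference at E9.5 was 0.88 (adjusted p = 0.0803) without E9 AoD replicate 1 and 0.75 (adjusted p = 0.109) without E9 AoV replicate 2.

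Of the leukocyte integrin subunits, Itgb2, Itgal and Itgam were called, and these rose with stage. Itgae and Itgb7 were not called and went down where they passed the adjusted p. The log2 change was -0.66 for Itgae in AoD (adjusted p = 0.0308) and -0.57 for Itgb7 in AoV (adjusted p = 0.0364). Their highest values in any library were 0.663 and 0.843 RPM. Itgb2, the beta subunit that Itgal, Itgam and other leukocyte alpha subunits share, was at 0.464, 0.349 and 0.257 RPM in E9 AoD, 0.818, 0.904 and 0.666 in E9 AoV, 1.89, 1.63 and 1.92 in E10 AoD, 1.73, 2.02 and 1.56 in E10 AoV, and 1.18, 1.4 and 1.24 RPM in E10 UGR. Every E10 library was above every E9 library. The rise was 2.09 on the log2 scale in AoD (SE 0.173, adjusted p = 1.28e-07) and 1.06 in AoV (adjusted p = 0.000151). The AoV value was 0.95 without E9 AoV replicate 3 and 0.97 without E10 AoV replicate 2, and then not called.

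Itgal, the alpha subunit that binds Icam1, was at 0.762, 0.914 and 0.62 RPM in E9 AoD, 1.46, 1.28 and 1.38 in E9 AoV, 2.31, 2.48 and 2.44 in E10 AoD, 2.65, 3.22 and 2.84 in E10 AoV, and 2.78, 2.69 and 2.73 RPM in E10 UGR. Itgam (chromosome 7, 135206154 to 135271674 on the plus strand), the alpha subunit of the myeloid complement receptor, was at 1.13, 0.972 and 0.741 RPM in E9 AoD, 1.22, 1.34 and 1.3 in E9 AoV, 3.38, 3.62 and 3.33 in E10 AoD, 2.64, 3.01 and 2.55 in E10 AoV, and 2.56, 2.56 and 2.98 RPM in E10 UGR. As for Itgb2, all E10 libraries lay above all E9 libraries, and Itgam was highest in E10 AoD without overlap. The rise with stage in AoD was 1.55 for Itgal (SE 0.127, adjusted p = 1.2e-07) and 1.77 for Itgam (SE 0.134, adjusted p = 5.34e-08), and in AoV 1.02 (adjusted p = 1.21e-05) and 1.03 (adjusted p = 1.96e-05). In AoV, Itgal fell short of the fold threshold without E9 AoV replicate 2 (0.98) or E10 AoV replicate 2 (0.95), and Itgam without E9 AoV replicate 1 (0.99) or E10 AoV replicate 2 (0.96).

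Macrophage markers moved with these 3 genes: 7 of the 8 were called higher with stage in AoD and 7 of the 8 in AoV, none was called between the E10 groups, and their sum was 5.47 to 10.2 RPM at E9.5, 53.8 to 61.7 RPM in E10 AoD, 39.9 to 44.9 RPM in E10 AoV and 33 to 37.5 RPM in E10 UGR. Hematopoietic markers rose too, with 6 of the 8 called higher in AoD and 5 in AoV. Their sum was 79.8 to 96.2 RPM in E9 AoD and 120 to 129 RPM in E9 AoV. At E10.5 it was 156 to 179 RPM in AoD, 177 to 196 in AoV and 105 to 107 RPM in UGR. Between the E9 parts, macrophage sums overlapped. There the 3 integrin genes were higher in AoV without overlap, each short of the fold threshold (Itgb2 0.99, Itgal 0.78 and Itgam 0.42, log2). Whether either list accounts for the integrin values was not tested. The start of Itgam is shown because it is the member of this group most tied to myeloid cells, as the 250 bases before the start on GRCm38.p6 from RefSeq, at chr7:128062390-128062639 on the plus strand, with the core GAGGAA recognised by the myeloid factor PU.1, or its reverse complement TTCCTC, in capitals.
Itgam: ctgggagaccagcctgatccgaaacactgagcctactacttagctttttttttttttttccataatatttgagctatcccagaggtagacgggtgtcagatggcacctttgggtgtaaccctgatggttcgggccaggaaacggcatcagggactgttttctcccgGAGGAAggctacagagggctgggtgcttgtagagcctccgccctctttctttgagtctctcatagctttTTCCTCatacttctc
The window holds 2 such cores, and 3.54% of the 32851 windows hold at least 2, while 23.3% hold at least 1. Among the members, the windows of Itga2b and Itgav also hold 2, and that of the leukocyte subunit Itgax holds none. The Itgam window also holds 1 GC box, which overlaps neither core.

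**Figure D3:**
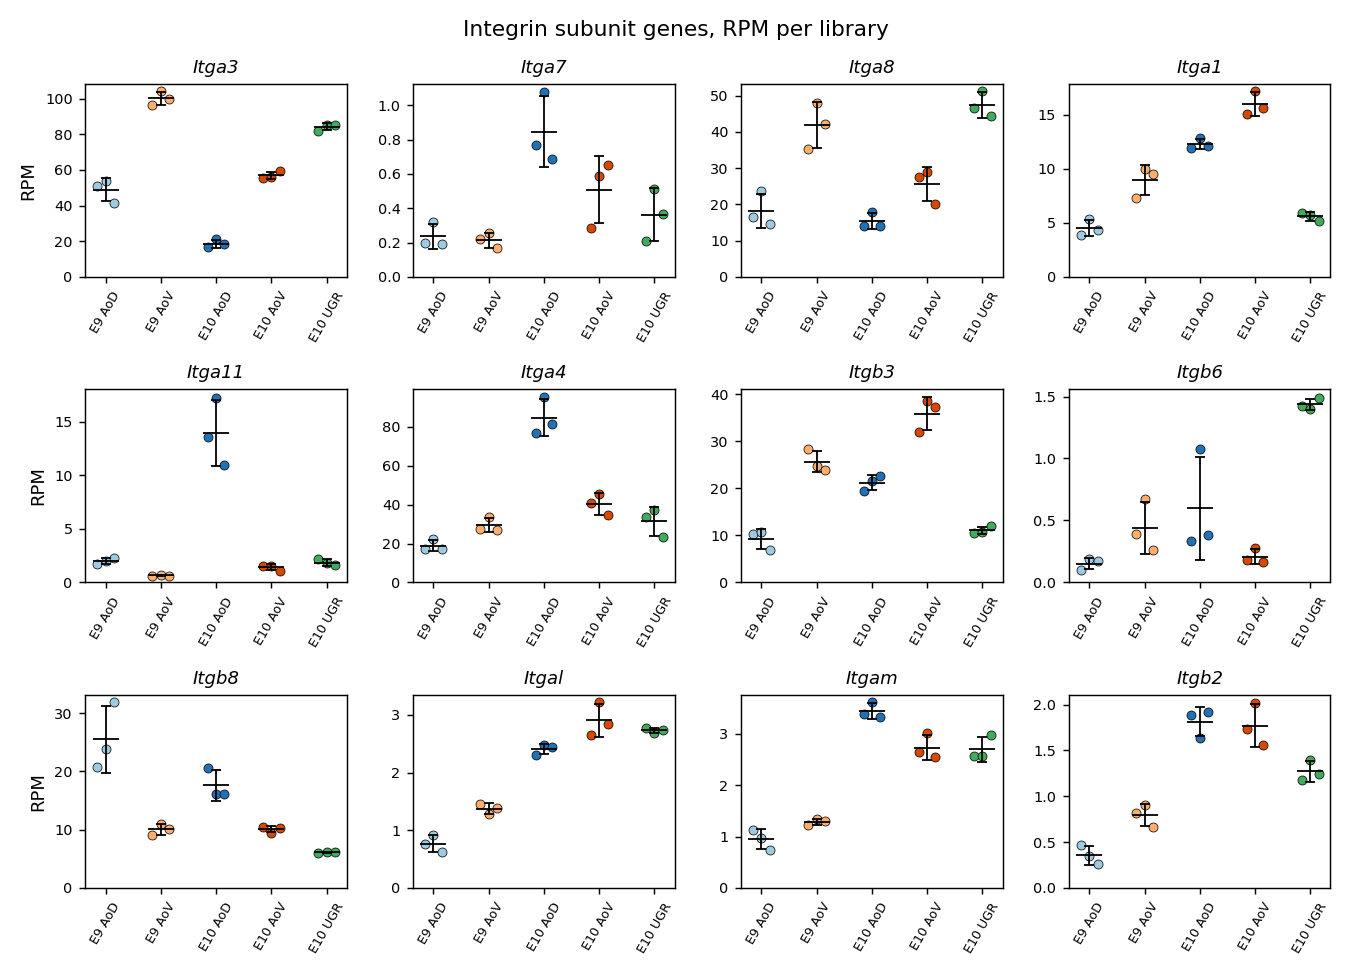
RPM (vertical axes, each from 0) of 12 integrin genes in the 5 groups. Points are libraries, the wide bars are group means and the error bars are SD (n = 3). Itga11 and Itga4 are highest in E10 AoD, Itgb8 is higher in AoD than in AoV at both stages, and Itgal, Itgam and Itgb2 are higher in every E10 library than in every E9 library.

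The 11 integrin genes without a call differed less. Itgb1 ranged from 348 ± 27.7 RPM in E9 AoD to 636 ± 8.19 RPM in E10 AoV, Itga5, the fibronectin receptor subunit, from 70.2 ± 0.954 RPM in E10 UGR to 111 ± 2.89 RPM in E9 AoV, and Itgav from 45 ± 3.86 RPM in E9 AoD to 85.6 ± 7.94 RPM in E10 AoV. Itga6, a laminin receptor subunit, ranged from 69.4 ± 3.96 RPM in E10 AoV to 122 ± 6.35 RPM in E9 AoD, and Itga9 from 81.4 ± 4.65 (E9 AoV) to 162 ± 11.5 RPM (E10 AoD). Itgb5 lay between 66.1 ± 2.78 and 103 ± 4.64 RPM. Itga2, Itgb4, Itgae and Itgb7 had means of at most 3.59, 2.74, 0.595 and 0.634 RPM. Counting laminins too, 14 members had no call, of which 13 passed the adjusted p in at least 1 comparison without reaching the fold threshold in size. The share of all tested genes that did so was not counted.

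Which members separated the groups differed between comparisons. From E9 AoD to E10 AoD, 12 of the 32 members were called higher (Lama2, Lama3, Lama4, Itga1, Itga4, Itga7, Itga11, Itgal, Itgam, Itgb2, Itgb3 and Itgb6) and 2 lower (Lama5 and Itga3), so that 43.8% were called against 12.6% of all tested genes (8.6% higher and 4% lower). The median log2 fold change was 0.55 over the members and 0 over all tested genes. Of the 23 integrin genes 9 were called higher and 1 lower. From E9 AoV to E10 AoV, 5 were higher (Lama2, Lamc3, Itgal, Itgam and Itgb2) and 2 lower (Lama5 and Lamb3), or 21.9% against 11% of all tested genes (6.04% higher and 4.99% lower), with medians of 0.12 and 0. Here 4 of the 9 laminin genes and 3 of the 23 integrin genes were called. This comparison rests in part on values near the threshold, since 4 calls were made without E10 AoV replicate 2.

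Between positions, 6 members were higher in E9 AoV than in E9 AoD (Lama3, Lamb3, Itga3, Itga8, Itgb3 and Itgb6) and 2 lower (Itga11 and Itgb8), or 25% against 11.8% of all tested genes (8.32% higher and 3.47% lower), with medians of 0.66 and 0.02. Of all genes called here 70.6% were higher in E9 AoV, and 59.4% after quantile normalization, under which 5 members were called higher and 2 lower. At E10.5, 3 members were higher in AoV (Lama5, Lamb3 and Itga3) and 3 lower (Itga4, Itga11 and Itgb6), or 18.8% against 10.1% (5.81% higher and 4.29% lower), with medians of 0.11 and 0.02. Lamb3 and Itga3 were higher in AoV and Itga11 was lower in AoV at both stages.

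Against the urogenital ridges, 5 members were higher in E10 AoV (Lama2, Lama3, Lamc3, Itga1 and Itgb3) and 1 lower (Itgb6), or 18.8% against 7.57% of all tested genes (3.84% higher and 3.73% lower), with medians of 0.14 and -0.05. In E10 AoD, 7 were higher than in E10 UGR (Lama2, Lama3, Itga1, Itga4, Itga7, Itga11 and Itgb8) and 5 lower (Lama5, Lamb3, Itga3, Itga8 and Itgb6), or 37.5% against 11.3% (4.76% higher and 6.56% lower), with medians of 0.1 and -0.05. Both comparisons share the UGR libraries.

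The change with stage was then compared between both parts of the aorta. The interaction, the log2 change with stage in AoV minus the one in AoD, was called under the same thresholds as negative for 6 members and as positive for none, or 18.8% against 11% of all tested genes (6.89% negative and 4.12% positive). Its median was -0.51 over the members and 0.01 over all tested genes. Itga11 and Itga4 rose with stage by 2.72 and 2.16 in AoD, and the interaction was -1.72 (SE 0.254, adjusted p = 0.000135) and -1.71 (SE 0.23, adjusted p = 5.84e-05). Itgb2 and Lama3 also changed more in AoD, with -1.03 (adjusted p = 0.00552) and -1.09 (adjusted p = 0.0183). The Itgb2 call was lost without E9 AoD replicate 3 (-0.86), E9 AoV replicate 2 (-0.94), E10 AoD replicate 1 (-1, short of the threshold before rounding), E10 AoD replicate 3 (-0.98) or E10 AoV replicate 3 (-0.94), and the Lama3 call without E9 AoD replicate 3 (-0.79). Neither was called after quantile normalization (-0.84 and -0.92) or with sample weights (-0.87 and -0.98). Lamb3, with -1.87 (adjusted p = 0.00149), fell in AoV from its high level in E9 AoV. Itgb6, with -2.08 (adjusted p = 0.0048), rests in AoD on the library named above, and without E10 AoD replicate 2 it was -1.62. Lama2, Itgal, Itgam and Itgb2 were called higher with stage in both parts and Lama5 lower in both. Except for Lama2, each of these AoV calls was lost on leaving out 1 library. The share of all tested genes called in both parts was not counted.

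**Figure D4:**
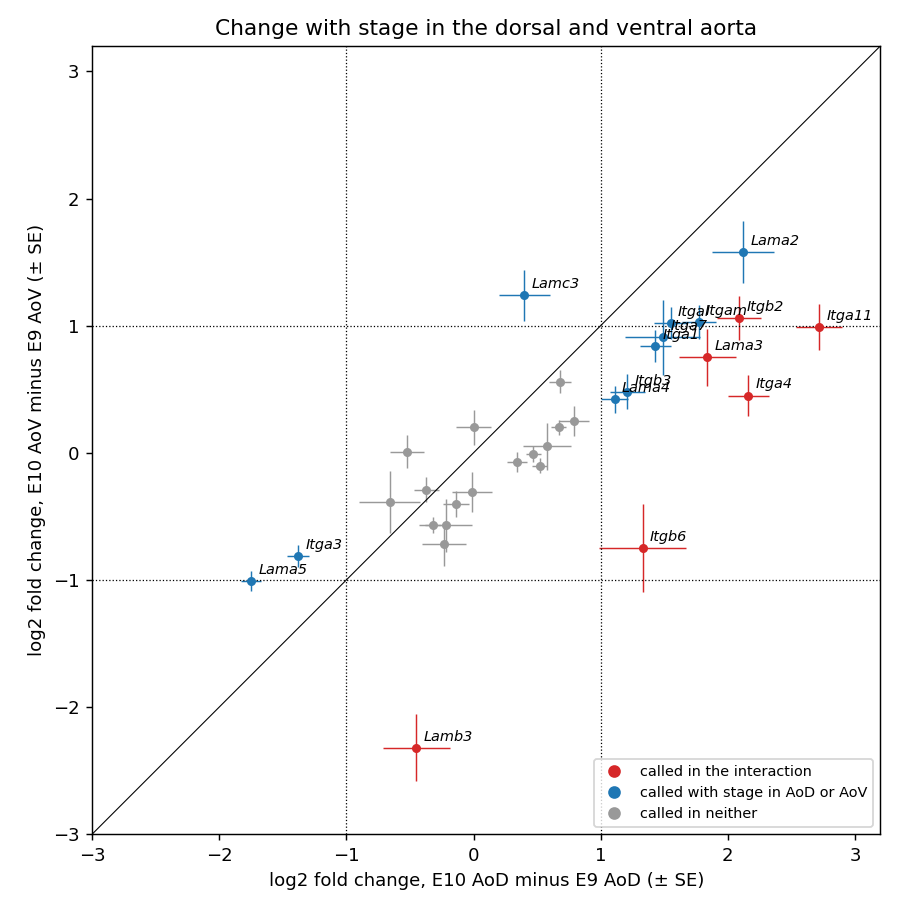
Log2 fold change with stage in AoD (horizontal axis, E10 minus E9) and in AoV (vertical axis) for 32 genes, with SE bars, dotted lines at a log2 fold change of 1 in either direction and a solid line of equal change. Red points are the 6 genes called in the interaction, blue points those called with stage in either part, and grey points the rest. Itga11 and Itga4 lie to the right of the line of equal change, and Lamb3 and Itgb6 far below it.

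Proteins that laminins and integrins bind were counted from 3 lists. Of 14 tested basement membrane partners of laminins (collagen IV chains, nidogens, perlecan, netrin and others), 3 were called higher in E9 AoV than in E9 AoD and none lower, and 3 higher and 1 lower in E10 AoV than in E10 AoD. That is 21.4% against 11.8% of all tested genes at E9.5 and 28.6% against 10.1% at E10.5. Col4a6, a collagen IV chain of epithelial basement membranes, was at 54.2 against 16.4 RPM in E9 AoV and E9 AoD (1.72, adjusted p = 9.47e-10) and at 28.8 against 5.63 RPM in E10 AoV and E10 AoD (2.34, adjusted p = 5.4e-11). Bcam, a cell-surface receptor of Lama5, had 96.9 RPM in E10 AoV against 24.5 RPM in E10 AoD (1.98, adjusted p = 1.2e-10). Both fell in AoD with stage, Col4a6 by 1.53 and Bcam by 1.25 on the log2 scale, where 2 partners were called lower and 2 higher (28.6% against 12.6%). In the UGR comparisons, 2 were higher and 4 lower in E10 AoD (42.9% against 11.3%), with Bcam at -2.79 (24.5 against 171 RPM, adjusted p = 2.23e-12), and 1 was higher in E10 AoV (7.14% against 7.57%), Ntn4. The same gene, Ntn4, was the only call with stage in AoV (1.02, adjusted p = 2.64e-06), which is 7.14% of the list against 11%.

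Of 30 tested other extracellular ligands of integrins, 13 were called higher with stage in AoD and 1 lower, and 6 higher and 2 lower in AoV, which is 46.7% against 12.6% of all tested genes in AoD and 26.7% against 11% in AoV. Higher in E9 AoV than in E9 AoD were 12 (40% against 11.8%), with none lower, led by the matrix proteins Postn (612 against 39.4 RPM, 4.03, adjusted p = 1.5e-09) and Tnc (123 against 17.8 RPM, 2.84, adjusted p = 5.56e-08). At E10.5, 8 were higher and 3 lower in AoV than in AoD (36.7% against 10.1%), among them Tnc, with 438 against 17.3 RPM (4.66, adjusted p = 5.45e-10), and Vtn, the ligand of Itgb3 integrins, with 0.908 against 13.2 RPM (-3.72, adjusted p = 2.45e-09). Vtn and Itgb3 therefore had opposite orders between E10 AoV and E10 AoD, although the Itgb3 log2 difference of 0.76 was below the fold threshold. Against E10 UGR, 8 were higher and none lower in E10 AoV (26.7% against 7.57%), and 7 were higher and 6 lower in E10 AoD (43.3% against 11.3%). The interaction was called for 10 (33.3% against 11%), of which 8 were negative, with Vtn lowest (-5.48, adjusted p = 1.52e-08) and Ibsp highest (3.79, adjusted p = 1.11e-06).

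Of 32 tested cytoplasmic partners (talins, kindlins, parvins, the integrin-linked kinase complex and adaptors), 4 were called higher and 1 lower with stage in AoD, or 15.6% against 12.6% of all tested genes. With stage in AoV 2 were higher and 1 lower (9.38% against 11%), and in E9 AoV over E9 AoD 2 and 1 (9.38% against 11.8%). In E10 AoV, 1 was lower than in E10 AoD (3.12% against 10.1%), and against E10 UGR 1 was higher and 1 lower (6.25% against 7.57%). In E10 AoD 3 were higher than in E10 UGR (9.38% against 11.3%), and 3 had a negative interaction (9.38% against 11%). Fermt1, the kindlin of epithelia, fell with stage from 12.5 to 0.479 RPM in AoV (-4.47, adjusted p = 4.06e-10) and from 7.82 to 0.906 RPM in AoD (-2.97, adjusted p = 1.27e-08). Parvg, the parvin of blood cells, rose from 0.482 to 2.69 RPM in AoD (2.29, adjusted p = 8.53e-07) and from 0.555 to 2.21 RPM in AoV (1.88, adjusted p = 9.79e-06). Nedd9, an adaptor of focal adhesions, was lower in AoV than in AoD at E9.5 (-1.08, adjusted p = 1.14e-06) and at E10.5 (-1.28, adjusted p = 2.54e-07).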

How the data were processed

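RNA of 15 pooled tissue samples in 5 groups of 3 was sequenced by the authors as short single-end reads from TruSeq libraries. The authors used TopHat with Bowtie 0.12.3 for alignment to NCBI37/mm9 and GeneProf for counting over Ensembl genes, where a read of several genes was shared by the number of reads unique to each. The deposited RPM (reads-per-million) values are per library, rounded to 3 significant digits, with no adjustment for length or between libraries. Columns with the authors' DESeq fold changes and p-values were not used. Strandedness is not given in the sources used here.

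The test, limma 3.58.1 (R 4.3.3) on log2(RPM + 0.1), took every gene that reached 0.5 RPM in any of the 15 samples, fitted a mean for each of the 5 groups jointly, and used an intensity trend and Benjamini-Hochberg adjustment. Each fold change is on this scale, which understates the change of genes at low levels. All adjusted p-values in the text come from this model, except those given for a left-out library. These come from the same model fitted again without that library. The pseudocount equals 3.37 to 4.86 reads. Depth was inferred from the steps between low values, between 0.01 and 0.3 RPM, of which 60.0% to 67.8% were whole reads within rounding (0.0005 RPM from 0.1 RPM upwards and 5e-05 RPM below), so counts could not be recovered, and intervals from depth cover counting error only. Libraries of a group had a Pearson r of 0.993 to 0.997. The text names each member called in at least 1 of 7 comparisons with its values. From each partner list it names up to 2 of the largest calls in either direction. Vcam1, Fn1, Npnt, Bcam and Lamb1-1 are named as ligands, receptors or trimer partners of named members, and were chosen after their values were seen. The members and lists were chosen with earlier results of these data known, and 1 of the 35 genes found by symbol is not reported here. Tns1, of the cytoplasmic list, had no unique row and was left out. Positions and exon lengths come from a GENCODE annotation of the authors' build, in which 97.4% of the tested identifiers were found.

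Replicates come from separate experiments, as the design text of the series states. Same-numbered libraries deviated together between E9 AoV and E9 AoD (correlations of deviations from the group means 0.452, 0.347 and 0.19). Among the E10 parts these correlations were also all positive, from 0.0416 to 0.339, whereas across stages they had either sign (30 pairs in all, median 0.0638). The main model used no pairing in any comparison, and a block for the replicate number was run only as an alternative. Alternatives changed the pseudocount, filter, scaling, trend, weights, fold threshold, samples and block.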

Additional observations from a re-analysis of the deposited data

Results flagged for a closer look

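For 6 members the change with stage differed between the ventral and the dorsal aorta, as tested by the interaction (limma, change in AoV minus change in AoD, log2). The values were -1.72 for Itga11 (SE 0.254, adjusted p = 0.000135), -1.71 for Itga4 (SE 0.23, adjusted p = 5.84e-05) and -2.08 for Itgb6 (SE 0.487, adjusted p = 0.0048). They were -1.03 for Itgb2 (SE 0.245, adjusted p = 0.00552), -1.09 for Lama3 (SE 0.318, adjusted p = 0.0183) and -1.87 for Lamb3 (SE 0.372, adjusted p = 0.00149). Without E9 AoD replicate 3 neither Itgb2 (-0.86) nor Lama3 (-0.79) was called, and the Itgb2 call was also lost without E9 AoV replicate 2 (-0.94), E10 AoD replicate 1 (-1), E10 AoD replicate 3 (-0.98) or E10 AoV replicate 3 (-0.94). Both calls were lost after quantile normalization (-0.84 and -0.92) and with sample weights (-0.87 and -0.98). In the interaction, 5 of 7 smooth muscle, 5 of 7 gut endoderm and liver, 3 of 6 neural crest and sympathoadrenal and 3 of 5 notochord markers were called negative. Called positive were 5 of 6 neural tube, 5 of 5 coelomic and adrenogonadal, 5 of 7 nephric duct (with 1 negative) and 4 of 5 germ cell markers. The part of these tissues in the values was not tested.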

How the results depend on the processing

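No called value changed direction under the alternatives run. Of 59 calls, 37 held in every alternative and 22 were lost in at least 1. Without a fold threshold the number of members called rose to 22 (E10 AoV against E9 AoV), 16 (E10 AoV against E10 AoD), 25 (E10 AoD against E9 AoD), 26 (E9 AoV against E9 AoD), 18 (E10 AoV against E10 UGR), 23 (E10 AoD against E10 UGR) and 21 (interaction). Of all 18553 tested genes, 8537, 6587, 10730, 8846, 5405, 7282 and 5214 were then called, in the same order, so such calls were common. A pseudocount of 1 RPM left 3 calls in E10 AoV against E9 AoV, where 7 were made, and 3 of 6 in the interaction, because it shrinks the fold changes of genes near 1 RPM. Leaving out a library in turn gave 4 to 8, 4 to 6, 13 to 14, 7 to 10, 6 to 7, 10 to 12 and 4 to 7 calls in the same order of comparisons, the lowest value, 4, of the first without E10 AoV replicate 2. A replicate block gave 7, 6, 14, 8, 6, 12 and 6 calls, as without it. For the E9 groups alone, an alternative chosen after seeing the data, the block also gave 8. Other scalings, filters and weights moved no count by over 1.5 times. Depth limits genes at low levels: Itgb6, Itga7, Itgae and Itgb7 reached at most 1.49, 1.08, 0.663 and 0.843 RPM in any library, and Itgad and Itgax were not tested.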
